A study of Schizosaccharomyces pombe 972h- with 8 samples.

Results

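The genes described here encode the core histones of fission yeast, Schizosaccharomyces pombe, and its H2A variant H2A.Z. They are hht1, hht2 and hht3 for histone H3, hhf1, hhf2 and hhf3 for H4, hta1 and hta2 for H2A, htb1 for H2B and pht1 for H2A.Z. They were found by name in the tables of both platforms, and all 10 were among the 4854 genes of each table. The cells were of the wild-type strain 972h- in yeast extract medium, and the treatment was 30 minutes in 0.5 mM H2O2. There were 2 cultures from independent colonies, and a part of each was taken as the control before H2O2 was added to the rest. Their RNA was hybridised to an Affymetrix expression array, whose probes the study grouped by gene as Sp_EMA, and to an Affymetrix tiling array, grouped as Sp_TMA. That gives 8 arrays, 2 for each platform and condition. No sample was kept for the same 30 minutes without H2O2, so that H2O2 and the added time in culture cannot be told apart. Since both platforms were read from the same 2 cultures, they are not independent of each other.

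Histone octamers of H2A, H2B, H3 and H4 wrap the DNA of the nucleus into nucleosomes, and new octamers are needed when DNA is copied. In general, core histone mRNA of eukaryotic cells accumulates in S phase, and whether each gene described here does so was not measured. In fission yeast the H3 and H4 genes lie as divergent pairs that share an upstream region, as do hta1 and htb1, while hta2 has no H2B partner. H2A.Z replaces H2A in nucleosomes near gene starts, where the SWR1 complex deposits it. The short motif AACCCT upstream of the core histone genes resembles the telomeric repeat and is known as the binding site of Teb1 and of the GATA-type factor Ams2.

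The 9 core histone genes fall into 5 loci, and each locus holds the motif once as an uninterrupted double. It is printed here because it is the sequence that all core histone genes share and pht1 does not. The windows were read from the RefSeq genome ASM294v3 on the strand that reads AACCCT, 5′ to 3′, with the doubled motif in capitals, and they lie outside the annotated transcripts of the histone genes.
hht1-hhf1, chrI:4699618-4699697 (forward strand): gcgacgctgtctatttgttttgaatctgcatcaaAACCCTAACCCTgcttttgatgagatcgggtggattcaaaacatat
hht2-hhf2, chrII:1365026-1365105 (reverse strand): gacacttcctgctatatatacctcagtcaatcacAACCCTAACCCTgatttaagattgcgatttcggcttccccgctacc
hht3-hhf3, chrII:3529593-3529672 (forward strand): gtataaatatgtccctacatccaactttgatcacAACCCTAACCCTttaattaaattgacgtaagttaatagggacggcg
hta1-htb1, chrIII:1412266-1412345 (reverse strand): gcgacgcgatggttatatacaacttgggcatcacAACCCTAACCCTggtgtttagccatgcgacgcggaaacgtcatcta
hta2, chrI:4053337-4053416 (reverse strand): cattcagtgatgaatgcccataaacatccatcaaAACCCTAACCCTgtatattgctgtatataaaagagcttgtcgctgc

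Outside the doubled motif, 4 of the 68 flanking positions were alike in all 5 windows. They form the run atca, which is separated from the motif by a single base that is A or C. The centre of the doubled motif lay 92 bp from the start codon of hht2, 103 bp from that of hht3, 129 bp from hta2, 134 bp from hhf3, 171 bp from hht1, 178 bp from htb1, 242 bp from hhf2, 261 bp from hhf1 and 383 bp from hta1. Between the start codons of a pair lay 237 bp (hht3 and hhf3), 334 bp (hht2 and hhf2), 432 bp (hht1 and hhf1) and 561 bp (hta1 and htb1). The single motif AACCCT, searched on both strands, was found in the 500 bp upstream of the start codon of 783 of 5144 annotated genes, or 15.2%. The doubled motif was found upstream of 18 genes, or 0.35%, and 9 of these are the core histone genes. The 500 bp upstream of pht1 hold neither form. A match in a window is a description and not a measured binding site.

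**Figure D1:**
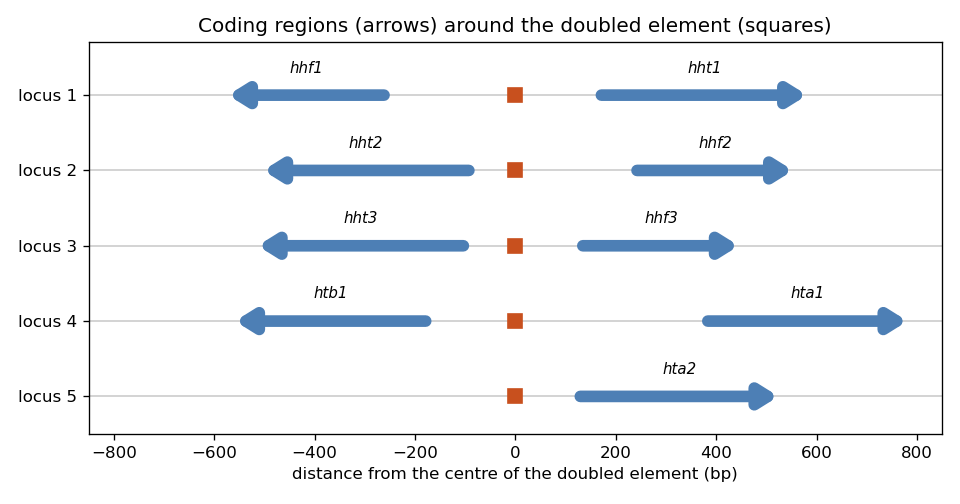
Coding regions of the 9 core histone genes (arrows, pointing in the direction of transcription) by distance in bp from the centre of the doubled motif (squares, whose width is not to scale), with the motif read 5′ to 3′ from left to right. The H3 gene lies to the right of the motif in the hht1-hhf1 locus and to the left of it in the other H3-H4 loci.

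The paralogues encode the same or almost the same protein from different codons, so that what tells them apart on an array is a limited number of bases. This is shown by the first 60 coding bases of the H3 and H4 genes (ASM294v3, 5′ to 3′), in which capitals mark the 9 positions of each family where its 3 genes are not all alike.
hht1: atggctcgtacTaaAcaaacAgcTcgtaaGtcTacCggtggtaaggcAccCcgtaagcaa
hht2: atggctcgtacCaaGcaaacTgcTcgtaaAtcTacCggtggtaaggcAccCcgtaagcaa
hht3: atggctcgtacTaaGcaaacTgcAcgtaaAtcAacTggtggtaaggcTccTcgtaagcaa
hhf1: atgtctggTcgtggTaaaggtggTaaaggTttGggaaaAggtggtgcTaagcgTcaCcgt
hhf2: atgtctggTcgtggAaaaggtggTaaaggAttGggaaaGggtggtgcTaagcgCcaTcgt
hhf3: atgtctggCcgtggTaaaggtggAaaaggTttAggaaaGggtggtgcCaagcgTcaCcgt

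Over the whole coding length, hht2 differed from hht1 in 46 and from hht3 in 48 of 411 bases, while hht1 and hht3 differed in 30. All 136 residues encoded by the H3 genes were the same. Of 312 bases, hhf2 differed in 27 from each of the other H4 genes and hhf1 and hhf3 differed in 21, and all 103 encoded residues were the same. The H2A genes hta1 and hta2 were 86.5% identical in bases and differed at 3 of 132 aligned residues. H2A.Z shared 52.9% of aligned residues with the product of hta1 and 53.6% with that of hta2.

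The study kept probes with a single match in the genome. Of all possible 25-base stretches of the coding sequences, the share found once in the genome was 100% for htb1 and pht1, 90.9% for both H2A genes, between 74.7% (hht1) and 89.1% (hht2) for the H3 genes, and between 77.1% (hhf3) and 87.5% (hhf1) for the H4 genes. A unique stretch can still be close to a paralogue. In the H3 genes 59.7% (hht2) to 85.5% (hht1) of the unique stretches lay within 2 mismatches of a paralogue, in the H4 genes 67% (hhf2) to 89.7% (hhf1), and in the H2A genes 21.7% (hta1) and 21.9% (hta2). How far signal is shared between paralogues was not tested, and the values of single H3 and H4 genes are uncertain to that extent. The sequences of the probes themselves were not used here.

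Strand is a second limit. Only the labelling of the tiling array kept the polarity of RNA, so that Sp_EMA does not separate a histone mRNA from RNA of the opposite strand. In the current annotation a non-coding RNA on the opposite strand overlaps coding sequence of 7 of the 10 genes. It covers the whole coding sequence of hhf2, hhf3, hta1 and pht1 and a part of it in hht1, hta2 and htb1, and none is annotated over that of hht2, hht3 and hhf1.

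The deposited values are RMA values on the log2 scale, with array medians of 10.29 to 10.31 on Sp_TMA and 11.10 to 11.13 on Sp_EMA. Values of the histone genes lay between 11.08 and 14.62 on Sp_TMA and between 12.06 and 14.34 on Sp_EMA. The highest values of the arrays were 15.16 to 15.28 and 14.93 to 14.96. Whether changes of the histone genes with the highest values are compressed was not tested. The genes chosen to check the treatment rose on both platforms by limma with Benjamini-Hochberg adjustment. They are ctt1 for catalase (change of 3.19 on the log2 scale on Sp_TMA and 2.99 on Sp_EMA), gpx1 for glutathione peroxidase (1.59 and 1.30), srx1 for sulfiredoxin (3.46 and 2.29), pyp2 for a phosphatase of the stress-activated kinase (4.27 and 5.02) and hsp9 for a small heat shock protein (2.26 and 0.77).

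In the H2O2 arrays relative to control, 3 of the 10 histone genes fell on Sp_TMA and 4 fell on Sp_EMA, and none rose on either. The genes hht2, hhf2 and hta2 passed the threshold on each platform, and hht1 did so on Sp_EMA alone. A gene counts as changed where limma gave an adjusted p below 0.05 over all 4854 genes. By the same rule 31.3% of all genes were lower and 25.2% were higher on Sp_TMA, and 36.2% were lower and 22.7% higher on Sp_EMA, so that the share of histone genes that fell is near that of all genes and is no result about them as a group. At an unadjusted p below 0.05, 4 of the 10 passed on Sp_TMA and 5 on Sp_EMA. The median change of the 10 genes was -0.12 on Sp_TMA and -0.13 on Sp_EMA on the log2 scale, beside -0.05 and -0.07 over all genes. The samples hold RNA of whole cultures, in which fewer cells in S phase and less histone mRNA per cell cannot be told apart.

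**Figure D2:**
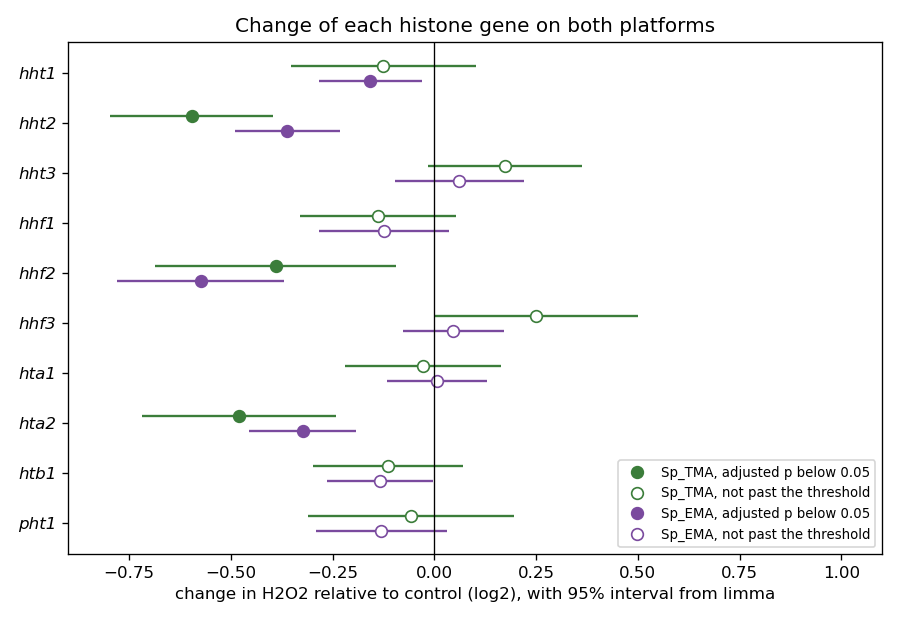
Change in H2O2 relative to control of each histone gene (log2, points, with the 95% interval from limma as lines) on Sp_TMA (green) and Sp_EMA (purple), with filled points where the adjusted p was below 0.05. Filled points stand for hht2, hhf2 and hta2 on both platforms and for hht1 on Sp_EMA, all to the left of 0.

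Of the H3 genes, hht2 showed the clearest difference. It lies on chromosome II from 1365119 to 1365818, forward strand. On Sp_TMA its log2 value was 12.17 and 12.28 in the control arrays of cultures 1 and 2, and 11.66 and 11.59 in the H2O2 arrays. On Sp_EMA the values were 14.20 and 14.18 in control and 13.86 and 13.81 in H2O2. Both H2O2 arrays lay below both control arrays on each platform, and the gap between the groups was several times the gap within them. From 12.22 ± 0.083 to 11.63 ± 0.050 (SD, n = 2) on Sp_TMA, the change of hht2 was -0.60 (standard error 0.083, limma adjusted p = 0.00137), which is 33.8% lower. From 14.19 ± 0.014 to 13.83 ± 0.035 (SD, n = 2) on Sp_EMA it was -0.36 (standard error 0.050, limma adjusted p = 0.0027), which is 22.2% lower.

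The change of hht1, on chromosome I from 4699732 to 4700560, forward strand, was smaller. Its values on Sp_TMA were 13.91 and 14.11 in control and 13.91 and 13.85 in H2O2, and the groups overlap. On Sp_EMA they were 14.30 and 14.34 in control and 14.17 and 14.16 in H2O2, which do not overlap. The change was -0.13 on Sp_TMA (95% interval -0.35 to 0.10, limma adjusted p = 0.294) and -0.16 on Sp_EMA (95% interval -0.28 to -0.03, limma adjusted p = 0.0425), the latter 10.34% lower. On Sp_TMA it moved to -0.22 without control array 1 and to -0.026 without control array 2 (limma adjusted p = 0.158 and 0.869). The call on Sp_EMA was lost when any 1 of the 4 arrays was left out (changes from -0.18 to -0.14, limma adjusted p from 0.0645 to 0.181) and in the paired fit with culture as a replicate block (limma adjusted p = 0.0675).

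The third H3 gene, hht3, on chromosome II from 3528800 to 3529565, reverse strand, did not pass the threshold. On Sp_TMA it read 13.35 and 13.34 in control and 13.57 and 13.47 in H2O2, with both H2O2 arrays above both control arrays. On Sp_EMA it read 13.68 and 13.76 in control and 13.83 and 13.73 in H2O2, where the groups overlap. The change was 0.17 (95% interval -0.02 to 0.36, limma adjusted p = 0.105) on Sp_TMA and 0.06 (95% interval -0.10 to 0.22, limma adjusted p = 0.433) on Sp_EMA, where it ranged from 0.013 without H2O2 array 1 to 0.11 without H2O2 array 2.

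**Figure D3:**
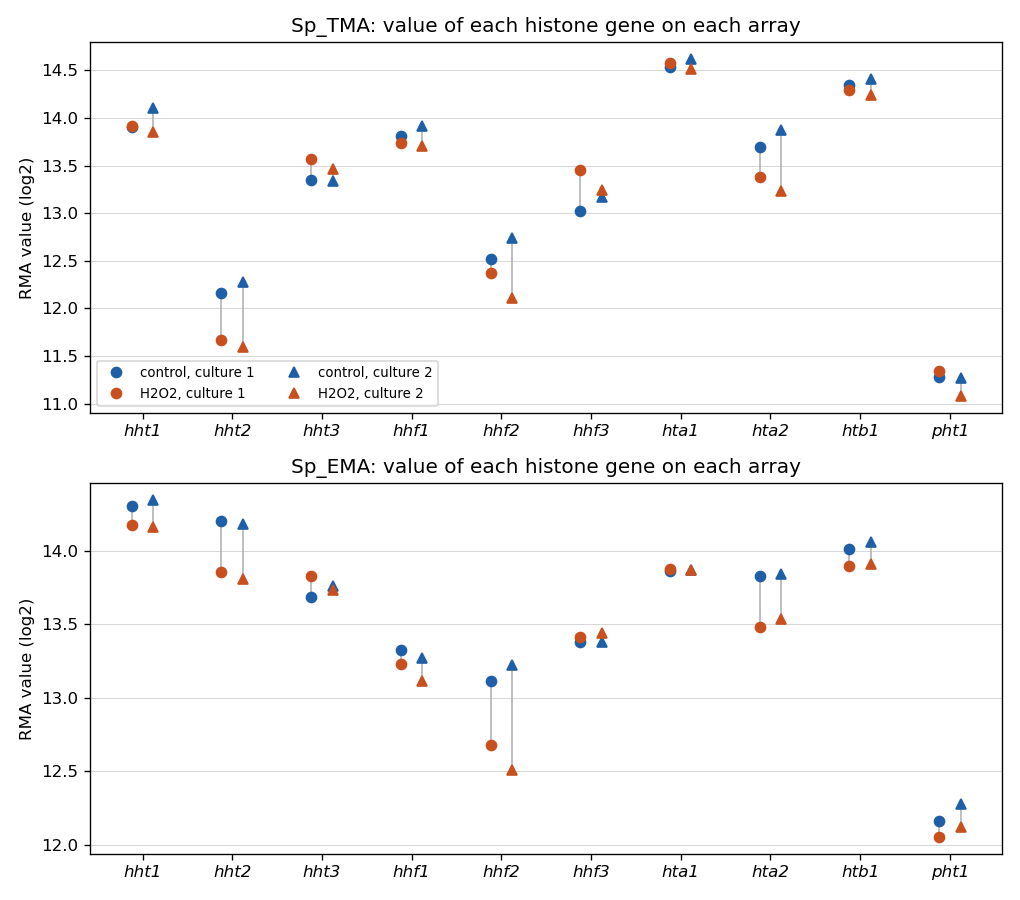
RMA value (log2) of each histone gene on every array, with Sp_TMA above and Sp_EMA below on axes of different range. Circles stand for culture 1 and triangles for culture 2, control is blue and H2O2 orange, and a grey line joins the arrays of a culture. For hht2, hhf2 and hta2 both orange points lie below both blue points on each platform.

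Among the H4 genes, hhf2, the divergent partner of hht2 on chromosome II from 1364189 to 1364984, reverse strand, fell on both platforms. Its values on Sp_TMA were 12.52 and 12.74 in control and 12.38 and 12.11 in H2O2. On Sp_EMA they were 13.11 and 13.22 in control and 12.68 and 12.51 in H2O2. The groups do not overlap on either platform, but on Sp_TMA the cultures differed in how far they moved, by -0.15 in culture 1 and by -0.63 in culture 2. From 12.63 ± 0.15 to 12.24 ± 0.19 (SD, n = 2) on Sp_TMA, the change of hhf2 was -0.39 (standard error 0.12, limma adjusted p = 0.0345), which is 23.7% lower. Without control array 2 it was -0.28 (limma adjusted p = 0.171) and without H2O2 array 2 it was -0.25 (limma adjusted p = 0.156), so that this call rests on the arrays of culture 2. From 13.17 ± 0.078 to 12.60 ± 0.12 (SD, n = 2) on Sp_EMA the change was -0.57 (standard error 0.080, limma adjusted p = 0.00267), which is 32.8% lower. The opposite strand of the whole hhf2 coding sequence is annotated as transcribed. Such RNA could add to the hhf2 value on Sp_EMA, as for the other genes with an overlap given above. Its part in the result was not tested.

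The remaining H4 genes did not pass the threshold. The partner of hht1, hhf1, on chromosome I from 4698773 to 4699599, reverse strand, read 13.81 and 13.91 in control and 13.74 and 13.71 in H2O2 on Sp_TMA. On Sp_EMA it read 13.32 and 13.27 in control and 13.23 and 13.12 in H2O2. On both platforms the H2O2 arrays lay below the control arrays, by less than the larger of the gaps within a group. The change of hhf1 was -0.14 (95% interval -0.33 to 0.05, limma adjusted p = 0.183) on Sp_TMA and -0.12 (95% interval -0.28 to 0.04, limma adjusted p = 0.147) on Sp_EMA. Without control array 2 it was -0.086 on Sp_TMA (limma adjusted p = 0.552), and without H2O2 array 2 it was -0.067 on Sp_EMA (limma adjusted p = 0.529).

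For hhf3, the partner of hht3 on chromosome II from 3529767 to 3530388, forward strand, the H2O2 arrays were the higher ones. It read 13.03 and 13.17 in control and 13.46 and 13.24 in H2O2 on Sp_TMA. On Sp_EMA it read 13.38 and 13.38 in control and 13.41 and 13.44 in H2O2. The groups do not overlap, although on Sp_TMA most of the difference came from culture 1. The change was 0.25 (95% interval 0.0005 to 0.50, limma adjusted p = 0.0809) on Sp_TMA and 0.05 (95% interval -0.08 to 0.17, limma adjusted p = 0.45) on Sp_EMA. Without H2O2 array 2, hhf3 passed the threshold as higher on Sp_TMA (change of 0.36, limma adjusted p = 0.0461), while without H2O2 array 1 its change there was 0.14 (limma adjusted p = 0.294).

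Of the H2A genes, hta2, which stands alone on chromosome I from 4052446 to 4053318, reverse strand, fell on both platforms. On Sp_TMA its values were 13.70 and 13.87 in control and 13.38 and 13.23 in H2O2. On Sp_EMA they were 13.83 and 13.84 in control and 13.48 and 13.54 in H2O2. All H2O2 arrays lay below all control arrays of their platform. From 13.78 ± 0.12 to 13.30 ± 0.11 (SD, n = 2) on Sp_TMA, the change of hta2 was -0.48 (standard error 0.098, limma adjusted p = 0.00681), which is 28.3% lower. From 13.83 ± 0.011 to 13.51 ± 0.041 (SD, n = 2) on Sp_EMA it was -0.32 (standard error 0.051, limma adjusted p = 0.00415), which is 20.1% lower.

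The other H2A gene, hta1, on chromosome III from 1411144 to 1412181, reverse strand, did not pass the threshold. It read 14.54 and 14.62 in control and 14.58 and 14.52 in H2O2 on Sp_TMA, where the groups overlap. On Sp_EMA it read 13.86 and 13.87 in control and 13.88 and 13.87 in H2O2, so that all 4 arrays differed only in the second decimal. The change was -0.03 (95% interval -0.22 to 0.16, limma adjusted p = 0.781) on Sp_TMA and 0.0062 (95% interval -0.12 to 0.13, limma adjusted p = 0.924) on Sp_EMA. Its direction on Sp_TMA turned with quantile normalization of the gene values (0.019).

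The H2B gene htb1, the divergent partner of hta1 on chromosome III from 1412359 to 1413677, forward strand, is the only gene for H2B. It read 14.35 and 14.41 in control and 14.29 and 14.24 in H2O2 on Sp_TMA. On Sp_EMA it read 14.01 and 14.06 in control and 13.90 and 13.91 in H2O2. The H2O2 arrays lay below the control arrays on both platforms, by amounts close to the gaps within groups on Sp_TMA. The change of htb1 was -0.11 (95% interval -0.30 to 0.07, limma adjusted p = 0.244) on Sp_TMA and -0.13 (95% interval -0.26 to -0.0036, limma adjusted p = 0.0732) on Sp_EMA. With quantile normalization of the gene values (change of -0.16, limma adjusted p = 0.0408) or an intensity trend in the variance (-0.13, limma adjusted p = 0.0045) it passed as lower on Sp_EMA.

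The H2A.Z gene pht1, on chromosome II from 1502203 to 1503444, reverse strand, did not pass the threshold. On Sp_TMA it read 11.28 and 11.27 in control and 11.35 and 11.08 in H2O2, so that the H2O2 arrays lay on either side of the control arrays. On Sp_EMA it read 12.16 and 12.27 in control and 12.06 and 12.12 in H2O2, with both H2O2 arrays below. The change was -0.06 (95% interval -0.31 to 0.20, limma adjusted p = 0.662) on Sp_TMA and -0.13 (95% interval -0.29 to 0.03, limma adjusted p = 0.135) on Sp_EMA, and on Sp_TMA its sign turned without H2O2 array 2 (0.07), while without H2O2 array 1 it was -0.19. On Sp_EMA it was -0.073 without control array 2.

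The histone genes of a family were also set against each other, and so were the partners of each divergent pair. Each difference was taken within a culture, on the log2 scale, as the change of a gene minus that of its paralogue or partner, in 11 gene pairs. With 2 arrays against 2 an exact permutation test (two-sided) cannot go below p = 0.333, and no model was fitted to these differences, so that they are given as values for each culture with no call. Within a family the gene with the lower change was put first, with the values known.

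The change of hht2 minus that of hht3 was -0.71 in culture 1 and -0.82 in culture 2 on Sp_TMA, and -0.49 and -0.35 on Sp_EMA. The change of hht2 minus that of hht1 was -0.51 and -0.44 on Sp_TMA and -0.22 and -0.19 on Sp_EMA. For hht1 minus hht3 it was -0.21 and -0.39 on Sp_TMA and -0.28 and -0.16 on Sp_EMA. In each culture and on each platform the H3 genes thus stood in the order hht2, hht1, hht3 from the lowest change. On Sp_TMA hht2 also had the lowest control mean of the H3 genes (12.22, beside 13.345 for hht3 and 14.01 for hht1). On Sp_EMA it did not (14.19, beside 13.72 for hht3 and 14.32 for hht1).

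The change of hhf2 minus that of hhf3 was -0.58 in culture 1 and -0.71 in culture 2 on Sp_TMA, and -0.47 and -0.77 on Sp_EMA. For hhf2 minus hhf1 it was -0.07 and -0.43 on Sp_TMA and -0.34 and -0.56 on Sp_EMA. For hhf1 minus hhf3 it was -0.50 and -0.28 on Sp_TMA and -0.13 and -0.21 on Sp_EMA. The H4 genes stood in the order hhf2, hhf1, hhf3, which is that of their H3 partners, although hhf2 and hhf1 were close in culture 1 on Sp_TMA. For hta2 minus hta1 the difference was -0.36 and -0.54 on Sp_TMA and -0.36 and -0.30 on Sp_EMA. Control means of hhf2 were the lowest of the H4 genes on both platforms (12.63 on Sp_TMA and 13.17 on Sp_EMA). Those of hta2 were below those of hta1 (13.78 beside 14.58 on Sp_TMA, 13.83 beside 13.87 on Sp_EMA). Each gene is read by its own probes, so that control means, here and for the H3 genes, need not rank transcript levels between genes. Whether the control mean of a gene has a part in the differences between paralogues was not tested.

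**Figure D4:**
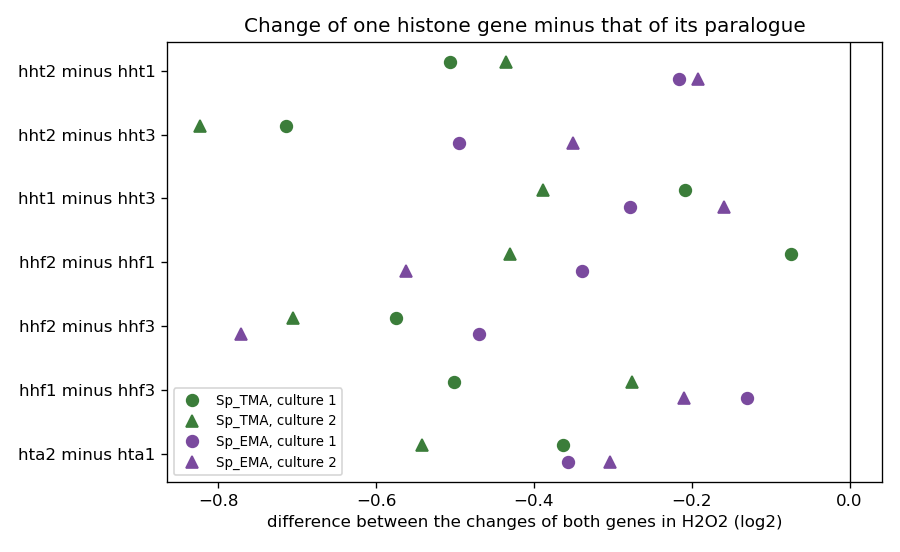
Change in H2O2 of a histone gene minus that of its paralogue (log2), in culture 1 (circles) and culture 2 (triangles) on Sp_TMA (green) and Sp_EMA (purple). All points lie to the left of 0, with hhf2 minus hhf1 in culture 1 on Sp_TMA nearest to it at -0.07, and the order of genes within a pair was chosen with the values known.

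The mean difference over both cultures ran from -0.77 to -0.17 between paralogues and from -0.21 to 0.21 between partners of a divergent pair, which share the doubled motif. The sizes of these ranges overlap. The mean change of hht1 minus that of hhf1 was 0.012 on Sp_TMA and -0.034 on Sp_EMA, that of hht3 minus hhf3 was -0.08 and 0.015, and that of hta1 minus htb1 was 0.09 and 0.14. For hht2 minus hhf2, the pair of which both genes fell, it was -0.21 on Sp_TMA and 0.21 on Sp_EMA, with opposite sign on the platforms.

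None of the 10 histone genes changed by a different amount on Sp_TMA and Sp_EMA past the threshold, in a limma fit over all 8 arrays that tested the platform by H2O2 interaction (1 of 10 at an unadjusted p below 0.05). Of all genes, 0.536% passed this test with the change on Sp_TMA lower and 1.4% with it higher. The gene below the unadjusted threshold was hht2, whose change was lower on Sp_TMA by -0.23 (95% interval -0.45 to -0.02, limma adjusted p = 0.215). The differences of hhf2 (0.18, 95% interval -0.19 to 0.55), hhf3 (0.20, 95% interval -0.07 to 0.48) and hta2 (-0.16, 95% interval -0.42 to 0.11) had limma adjusted p of 0.539, 0.372 and 0.472. For hht3 the difference was 0.11 (95% interval -0.11 to 0.33), and for hht1, hhf1, hta1, htb1 and pht1 it lay between -0.03 and 0.07. The fit took the 8 arrays as independent, although both platforms read the same 2 cultures. With the difference between platforms taken within each culture, no histone gene passed either (for hht2, limma adjusted p = 0.149). The intervals above do not show that the platforms measured the same change.

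Among the 9 other genes with the doubled motif upstream, 7 had values. On Sp_TMA 3 fell, 1 rose and 3 did not pass the threshold, beside 31.3% lower and 25.2% higher among all genes. On Sp_EMA 1 fell, 1 rose and 5 did not pass, beside 36.2% and 22.7%. With so few genes these counts are a description. The gene that rose on both was ssa1, for an Hsp70 chaperone (2.64 on Sp_TMA and 2.82 on Sp_EMA on the log2 scale, limma adjusted p = 5.4e-05 and 0.000181). The gene that fell on both was tif51, for a translation factor (-0.44 and -0.18, limma adjusted p = 0.0159 and 0.0247). The changes of ppc89, of the spindle pole body, were -0.38 on Sp_TMA, where it fell, and 0.08 on Sp_EMA.

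Counts of the following lists stand beside the shares of all genes given above, and no list was tested as a group. The factors known to act on histone genes were read from a list of 6 genes. On Sp_TMA 3 of them fell and on Sp_EMA 3 fell, none rose, and the median changes were -0.25 and -0.14. The list holds the HIRA complex, a chaperone that also represses core histone genes outside S phase. Its subunits hip4 (-0.40 on Sp_TMA and -0.52 on Sp_EMA, limma adjusted p = 0.00882 and 0.000879) and slm9 (-0.45 and -0.19, limma adjusted p = 0.00336 and 0.0253) fell on both platforms. Its other listed subunits, hip1 and hip3, named after their values were seen, did not. The gene hip1 fell on Sp_TMA alone (-0.27 and -0.06, limma adjusted p = 0.0226 and 0.638). For hip3 neither change passed (-0.22 and -0.0033, limma adjusted p = 0.0932 and 0.968). Of the factors that bind the motif, named here after their values were seen, ams2 changed by -0.10 and -0.09 (limma adjusted p = 0.413 and 0.359). For teb1 the change was 0.09 on Sp_TMA (limma adjusted p = 0.362) and -0.35 on Sp_EMA, where it passed as lower (limma adjusted p = 0.003).

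Histone chaperones and the centromeric H3 variant gave 16 measured genes, of which 3 fell and 1 rose on Sp_TMA and 9 fell and 1 rose on Sp_EMA, with median changes of -0.03 and -0.20. Those that fell on both platforms included pcf1 (-0.44 and -0.39) and pcf3 (-0.38 and -0.41), subunits of the chromatin assembly factor that loads H3 and H4 behind the replication fork, and mis16 (-0.30 and -0.38), an H3-H4 chaperone of the centromere. The centromeric variant itself, cnp1, named after its values were seen, changed by 0.02 and -0.0074 and did not pass.

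Of 24 measured genes of the SWR1 and INO80 remodelling complexes, which exchange H2A.Z, 5 fell and 3 rose on Sp_TMA and 12 fell and 4 rose on Sp_EMA, with medians of 0.0026 and -0.13. The ATPase gene swr1, whose product deposits H2A.Z, rose (0.51 on Sp_TMA and 0.48 on Sp_EMA, limma adjusted p = 0.00202 and 0.00104). The SWR1 subunit gene swc3 (-0.48 and -0.54) and hap2 of INO80 (-0.42 and -0.64) fell, so that genes of these complexes moved in both directions beside pht1, which did not pass.

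Of 29 histone-modifying enzyme genes 12 fell and 2 rose on Sp_TMA and 14 fell and 3 rose on Sp_EMA, with medians of -0.11 and -0.14. By far the lowest of those named was ark1, the Aurora kinase that phosphorylates H3 in mitosis (-2.09 on Sp_TMA and -2.85 on Sp_EMA). The H3 methyltransferase of heterochromatin, clr4 (-0.95 and -0.92), and the H3 acetyltransferase gcn5 (-0.82 and -0.85) fell as well.

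The list with the highest count of lower genes was that of S phase. Of its 23 genes 15 fell and 2 rose on Sp_TMA and 17 fell and 2 rose on Sp_EMA, with median changes of -0.45 and -0.32. They included the S phase cyclin gene cig2 (-1.94 on Sp_TMA and -1.81 on Sp_EMA), the replication licensing gene cdc18 (-1.18 and -1.14) and mcm4 for a subunit of the replicative helicase (-0.88 and -1.28). The most lowered histone gene on each platform, hht2 at -0.60 on Sp_TMA and hhf2 at -0.57 on Sp_EMA, changed less than each of these. The genes of the list that rose on both platforms, named after their values were seen, were cdt2 (0.88 on Sp_TMA and 0.97 on Sp_EMA) and ssb1 (0.31 and 0.35). When in the cell cycle the mRNA of each listed gene or of each histone gene is high was not measured. The part that the changes of the S phase genes have in those of the histone genes was not tested.

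**Figure D5:**
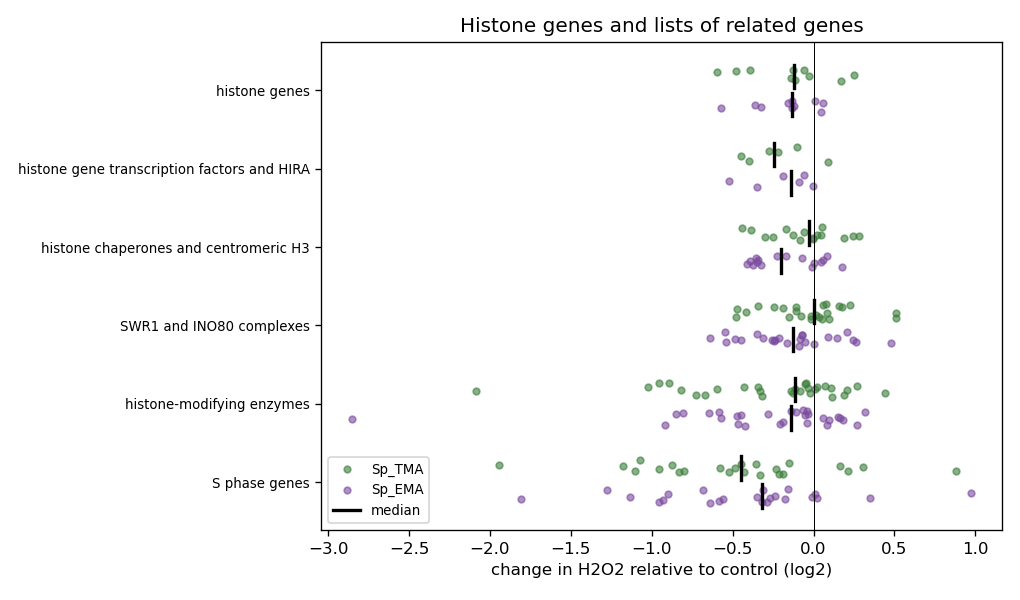
Change in H2O2 (log2) of the 10 histone genes and of the genes of 5 related lists, each point a gene, on Sp_TMA (green) and Sp_EMA (purple), with the median as a black bar. Most S phase genes lie to the left of 0, with medians of -0.45 and -0.32 beside -0.12 and -0.13 for the histone genes.

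The genes whose pattern was most like the mean of the 9 core histone genes were sought by Euclidean distance over 4 changes, those of 2 cultures on 2 platforms. The mean itself was -0.05 and -0.28 on Sp_TMA and -0.14 and -0.21 on Sp_EMA in cultures 1 and 2. The 5 nearest genes outside the group were gcn3 (distance 0.0439 on the log2 scale), pan6 (0.0465), mdm28 (0.0466), SPAC1039.06 (0.054) and SPAC10F6.14c (0.0554). How common such distances are among all genes was not tested, so that nearness alone shows no tie to the histone genes. Of the core histone genes hht1 was the closest to the mean of the 9, at 0.0589, and hhf2 the farthest, at 0.694. That mean thus described few of its own members.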

How the data were processed

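The tables deposited by the authors give a log2 value for each gene on each array. It is the RMA summary (probe background adjusted, arrays quantile normalized, probes combined by median polish, with no version given in the sources used here) of custom probe sets, which kept probes with a single genomic match and genes with at least 4 probes, separately for each platform. They were used as deposited. Quantile normalization sets arrays to a common distribution, so that a shift shared by all genes would not be seen, and the number of arrays limits the precision. The tables hold 4854 genes each, and no column was left without a sample.

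H2O2 was compared with control within each platform with limma 3.58.1 in R 4.3.3 (lmFit, eBayes, Benjamini-Hochberg over all genes, two-sided, threshold 0.05), with 2 residual degrees of freedom and a prior of 4.22 on Sp_TMA and 3.03 on Sp_EMA. The platforms were compared by an interaction term over 8 arrays. Alternatives were culture as a replicate block, each array omitted singly, median centring, a further quantile normalization, omission of the dimmest 25% of genes, a variance trend with intensity and a threshold of 0.01. The pairing comes from the design, since the control and the H2O2 sample of a number are of the same culture. Over all genes, Pearson's r between the gap of the cultures in control and their gap in H2O2 was -0.0585 (Sp_TMA) and 0.253 (Sp_EMA). The fits were also run on simulated arrays without a culture effect. That run does not speak to the pairing, and its outcome is not given here.

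The members and gene lists were chosen with earlier results of these data known. Lists are described by counts and medians, with no set test. Every histone gene is named, up to 3 genes of each list (those past the threshold on both platforms in the same direction with the largest mean change), every gene of the peroxide check and the 5 genes nearest in pattern. Sequences and positions come from RefSeq ASM294v3, in which 4845 genes matched by systematic name. The authors used an earlier annotation, and the tables hold no coordinates. Tables were made with Python 3.11.15 and its packages pandas 2.3.3, scipy 1.17.1, numpy 2.4.6 and Biopython 1.88, and figures with matplotlib 3.10.9.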

Additional observations from a re-analysis of the deposited data

How the results depend on the processing

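The calls of hht2 and hta2 as lower were kept on both platforms under all 10 alternatives run, with adjusted p from limma of 5.54e-06 to 0.0121 (hht2) and 0.000301 to 0.0441 (hta2) on Sp_TMA, and 1.72e-05 to 0.0282 and 7.12e-05 to 0.0382 on Sp_EMA. That of hhf2 was kept on Sp_EMA (0.000134 to 0.0182) and on Sp_TMA was lost without either array of culture 2 and at a threshold of 0.01 (0.00386 to 0.171). That of hht1 on Sp_EMA was lost under 7 of 10, among them the replicate block, centring of the arrays on their medians (-0.15, adjusted p = 0.0526) and the threshold of 0.01. The paired fit with the replicate block changed no other call of a histone gene, with 3 lower on each platform, and gave 1470 lower and 1210 higher genes in all on Sp_TMA and 1738 and 1110 on Sp_EMA. On Sp_TMA it gave every histone gene the same standard error, 0.124, so that its adjusted p does not reflect the spread of each gene. This fit gave the lowest adjusted p stated above on Sp_TMA for hht2, hta2 and hhf2. With 1 array left out, the number of histone genes higher on Sp_TMA ranged from 0 to 1, of those lower from 2 to 3, and of those lower on Sp_EMA it was 3. Of the changes that did not pass the threshold, those of hta1 and pht1 on Sp_TMA turned sign when an array was left out. They ranged from -0.069 to 0.013 for hta1 and from -0.19 to 0.073 for pht1, and hta1 was at 0.019 with quantile normalization. No other change of a histone gene within a platform turned sign under the alternatives. Differences between the platforms ranged from -0.071 to 0.042 for hhf1, -0.067 to 0.13 for hht1, -0.076 to 0.0066 for hta1, -0.0090 to 0.047 for htb1 and -0.060 to 0.20 for pht1, and kept their sign for hhf2 (0.049 to 0.32), hhf3 (0.098 to 0.31), hht3 (0.063 to 0.16), hta2 (-0.24 to -0.068) and hht2 (-0.29 to -0.18). The cause was not tested. Restricting the tests to genes with a value on both platforms left the tables as they are, so that this alternative gave no value of its own. With 2 arrays in a group the 95% interval of a histone gene's change reached 0.185 to 0.30 on either side of it on Sp_TMA and 0.12 to 0.20 on Sp_EMA. These widths describe the precision and are not a limit of detection.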
